A study of Mus musculus with 4 samples.

Results

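Type I interferon-stimulated genes are the genes that a cell switches on after interferon alpha or beta binds its receptor. They were followed here as a list of 47 genes in single CD4 T cells of the mouse small intestine. All 47 symbols were found, each once, among the 31053 gene IDs of the matrices. The cells had been sorted as CD45+CD3+CD4+ and negative for the dead-cell dye 7AAD. They came from the lamina propria, the layer that lies beneath the epithelium, of C57Bl/6 mice with the wild-type genotype. Peyer's patches, the lymphoid follicles of the gut wall, had been taken out before digestion. The series holds 4 libraries of Chromium 5′ chemistry, which all form 1 group, so the labels hold no treated or mutant samples. The design text speaks of 4 mice without tying each library to 1 animal, so the replicates are called libraries. The p-values below set a difference between gates against its variation over these libraries only. Except in a fit named below, gates are compared within each library, so differences between whole libraries are taken out.

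Type I interferons signal through a receptor made of Ifnar1 and Ifnar2, and the kinases Jak1 and Tyk2 then activate a complex, with Stat2 and Irf9 among its parts, that binds interferon-stimulated response elements in the promoters of its target genes. Interferon gamma uses another receptor and induces a partly overlapping set of genes, the guanylate-binding and immunity-related GTPases among them. The gut wall has a low level of interferon signalling at rest, which intestinal microbes are known to maintain.

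The 4 libraries held between 23918884 and 28783972 UMIs (unique molecular identifiers, each standing for 1 captured transcript), and 21484 cells were kept of 22904 barcodes, with library medians between 3624 and 4167 UMIs per cell. Pairs of libraries shared between 34 and 55 barcodes. The cells were divided by 4 genes that are not on the list, in a fixed order in which a cell goes to the first gate it meets. A cell with at least 1 UMI of Foxp3 (the lineage factor of regulatory T cells) formed the Foxp3 gate, with 1522 cells. Next came the Il17a gate (at least 1 UMI of the Th17 cytokine, 584 cells), the Ifng gate (at least 1 UMI of interferon gamma, 6583 cells) and the Gzma gate (at least 10 UMIs of the protease granzyme A, 1745 cells). All other cells, 11050, are the rest, and they can hold cells of each kind in which the gating transcript was not captured. Markers that the gates did not use followed the names of the Foxp3, Ifng and Gzma gates. Ikzf2, a regulatory T cell factor, averaged 819 ± 98.4 CPM (the gene's UMIs scaled to a common total of all UMIs; SD, n = 4 libraries) in the Foxp3 gate and 154 ± 14.0 CPM in the rest. Tbx21, the Th1 factor, averaged 104 ± 2.58 CPM in the Ifng gate and 74.8 ± 8.03 CPM in the rest, a small difference, and the cytotoxic protease Gzmb averaged 3215 ± 264 CPM in the Gzma gate and 258 ± 28.3 CPM in the rest. Levels in CPM are not divided by transcript length, as this chemistry reads 1 end of each transcript. In such sums, more cells with a transcript and more of it per cell cannot be told apart.

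The promoters of the list carry the letters of the response element more often than promoters at large. In the RefSeq promoter windows (GRCm38.p6, 250 bases before to 50 after the gene start), 38 of the 47 members had an entry, and 22 of these 38 (57.9%) held the element's letters (GAAA, any 2 bases, GAAA) on either strand, compared with 3.99% of 27025 genes. The letters of the gamma-activated sequence (TTC, any 3 bases, GAA) were in 6 of the 38 (15.8%), compared with 9.55% of all genes; in Bst2 the letters of the 2 motifs overlap. A match is a description of the sequence and not a measured binding site. The stretches below show the element in the members that the results turn on, the most cell-restricted Ifit genes with Rsad2 and Isg15, and the Pyhin genes of chromosome 1, which all fell in the Il17a gate. Each is 50 bases on the strand of its gene, 5′ to 3′, with the element in capitals; TTTC, any 2 bases, TTTC is the same element read on the other strand.
Ifit3 (chr19:34583387-34583436, plus strand): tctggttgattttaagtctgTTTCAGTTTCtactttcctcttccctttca
Ifit3b (chr19:34607783-34607832, plus strand): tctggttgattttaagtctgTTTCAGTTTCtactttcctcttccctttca
Rsad2 (chr12:26456543-26456592, minus strand): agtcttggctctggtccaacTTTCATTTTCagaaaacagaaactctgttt
Isg15 (chr4:156200861-156200910, minus strand): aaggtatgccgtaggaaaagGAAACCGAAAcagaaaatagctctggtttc
Ifi206 (chr1:173491329-173491378, minus strand): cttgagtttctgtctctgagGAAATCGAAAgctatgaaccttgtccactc
Ifi208 (chr1:173673587-173673636, plus strand): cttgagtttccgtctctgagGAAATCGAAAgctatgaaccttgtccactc
Ifi213 (chr1:173599316-173599365, minus strand): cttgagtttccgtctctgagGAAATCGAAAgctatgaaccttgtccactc
Ifi203 (chr1:173942498-173942547, minus strand): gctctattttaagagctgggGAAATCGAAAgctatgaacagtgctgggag
Ifit3 and Ifit3b share the same 50 bases here, as do Ifi208 and Ifi213. Isg15 has 3 overlapping matches, of which the middle one is shown. Ifi209, a neighbour of the other Pyhin genes, has an entry without these letters in its window, and Ifi27l2a has no entry.

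The 47 members lie on 13 chromosomes in the GENCODE annotation of GRCm38, and 27 of them sit in 9 loci shared with another member. The largest loci hold 5 Pyhin genes on chromosome 1 (from Ifi206 at chr1:173468485 to Ifi203 at chr1:173942672) and 5 Ifit genes on chromosome 19 (from Ifit2 at chr19:34550694 to Ifit1 at chr19:34650009). Near-identical copies limit what can be read from some of them. Ifit3 shares 51.2% of the 50-base words of its transcripts with Ifit3b, Oas1a shares 57.6% with Oas1g, and Ifit3b shares 45.0%, Phf11b 47.05% (26.0% with Phf11a, the closest), Ifi209 33.7% (Ifi214 the closest), Ifi206 25.6% and Ifi208 20.8% with other genes in all. A read from such a stretch can be counted for any of the copies or for none. Dtx3l overlaps Parp9 on the opposite strand, Irf7 overlaps Phrf1, Rtp4 overlaps Masp1 and Slfn5 overlaps Slfn5os likewise, Ifi203 overlaps Mndal and Irf9 overlaps Rnf31 on the same strand, and the use of strand in counting is not given in the sources used here.

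The members were detected in every library, most of them at low levels. Ifi27l2a, a small membrane protein gene, was the most abundant member, with 737, 838, 817 and 936 CPM in libraries 1 to 4. Epsti1 followed with 303, 280.2, 299 and 299 CPM and Isg15, the ubiquitin-like modifier, with 287, 286, 293 and 261 CPM. Ifi203, a Pyhin-domain gene, had 215, 225, 257 and 281 CPM. Bst2 (tetherin, which holds budding virus at the membrane) averaged 136 ± 17.2 CPM, the Z-nucleic acid sensor Zbp1 118 ± 12.7 CPM, the Schlafen gene Slfn1 105 ± 26.9 CPM, Rtp4 93.8 ± 17.1 CPM, Ifi35 88.1 ± 5.58 CPM and the RNA sensor Ddx58 (RIG-I) 85.8 ± 7.41 CPM (SD, n = 4 libraries). These 10 include the antiviral effector Bst2 and the sensors Zbp1 and Ddx58.

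Among the Ifit genes, which encode proteins that bind foreign RNA, Ifit1 had 26.3, 29.8, 36.2 and 39.2 CPM in libraries 1 to 4, and Ifit3 had 4.97, 7.31, 12.6 and 14.6 CPM. Ifit1bl1 averaged 20.1 ± 7.03 CPM, Ifit2 12.8 ± 2.46 CPM and Ifit3b 1.88 ± 0.830 CPM. All 5 were higher in library 4 than in library 1. The antiviral effectors Rsad2 (viperin) and Mx1, a dynamin-like GTPase, averaged 8.79 ± 2.08 and 6.43 ± 0.971 CPM, and Usp18, the protease that removes Isg15 and restrains the receptor, 5.44 ± 2.07 CPM. The exonuclease Isg20 averaged 71.8 ± 7.99 CPM. Of the transcription factors, Irf7 averaged 85.6 ± 10.5 CPM and Irf9, the DNA-binding part of the complex with Stat2, 61.1 ± 6.31 CPM. The members with a mean under 1 CPM were Oasl1 with 0.986 ± 0.382 CPM and Phf11d with 0.766 ± 0.108 CPM.

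The libraries differed in the same direction for most of the list. Of the 47 members, 43 were lowest in library 1, 36 were highest in library 4, and 34 were both. The exact Poisson intervals (95%, counting error only) of the lowest and the highest library did not overlap for 44 of them. Summed over the members, libraries 1 to 4 held 3027, 3370, 3621 and 3836 CPM. Over the 37 members with at least 10 CPM, 27 (73.0%) were lowest in library 1 and highest in library 4, compared with 16.4% of 7573 other genes of that level, and the median ratio of library 4 over library 1 was 1.31 for these members and 1.02 for the other genes. Ifit3 had the value 14.6 CPM in library 4 and 4.97 CPM in library 1. The pattern had exceptions among the abundant members, since Isg15 was lowest in library 4 and Epsti1 lowest in library 2 and highest in library 1. The labels give the libraries no condition, and with 1 group this spread has no test.

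**Figure D1:**
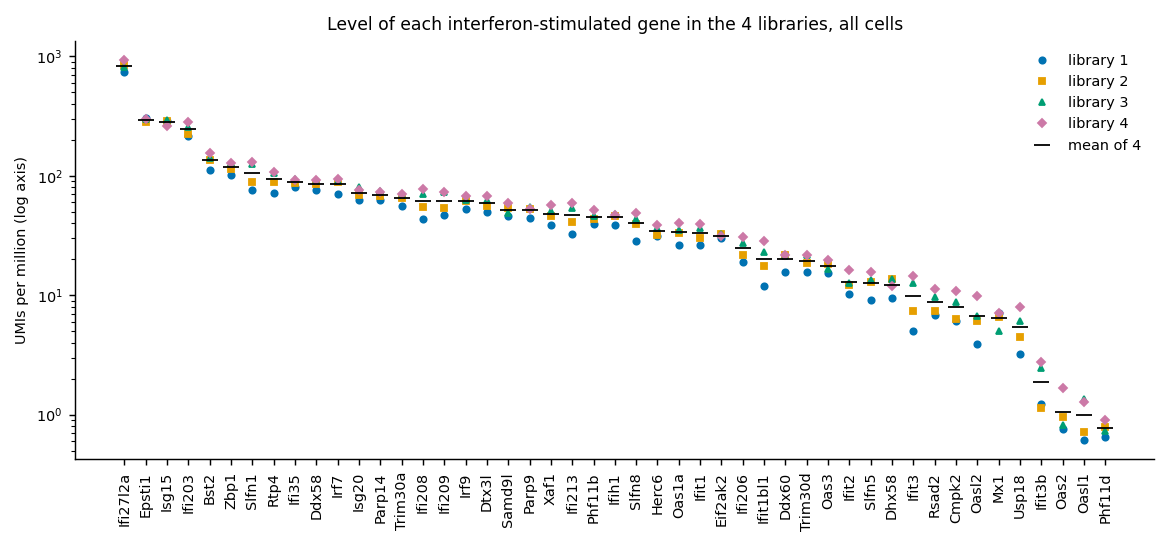
Level of each member in CPM (log axis) in libraries 1 to 4, all cells kept, with members ordered by their mean (black bar). Library 1 is the lowest point for 43 of the 47 members, and the range runs from 832 CPM for Ifi27l2a to 0.766 CPM for Phf11d.

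Against the rest, the Foxp3 gate changed members in both directions. Of the 43 members with enough UMIs to test, 12 rose, when 18.6% of the 9671 genes tested rose, and 7 fell, when 16.2% of all genes fell (edgeR quasi-likelihood test with library as a block, Benjamini-Hochberg adjusted p under 0.05 over all genes tested). The count of members that fell is near the share of all genes that fell. The members' median log2 fold change was 0.01, and that of all genes was -0.02. Ifit3b, Oas2, Oasl1 and Phf11d had too few UMIs to test in any gate. Ifi27l2a had 1421, 1391, 1621 and 1621 CPM in the Foxp3 gate, against 698, 812, 756 and 863 CPM in the rest. The gate and the rest did not overlap, and its log2 fold change was 0.98 ± 0.06 (SE, adjusted p = 3.62e-11). Oas1a, which makes the 2-5A that activates RNase L, had 60.9, 53.3, 60.1 and 59.7 CPM in the Foxp3 gate, against 20.8, 31.9, 30.1 and 37.9 CPM in the rest, again without overlap (log2 fold change 1.00 ± 0.13, adjusted p = 1.95e-06).

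Slfn5, Phf11b, Eif2ak2 and Ifi209 also rose in the Foxp3 gate, each in 4 of 4 libraries. Eif2ak2, the kinase PKR that halts translation on sensing double-stranded RNA, had 50.6, 46.6, 48.6 and 47.6 CPM in the Foxp3 gate, against 26.9, 31.2, 29.7 and 30.2 CPM in the rest (log2 fold change 0.74 ± 0.08, adjusted p = 6.83e-08). Phf11b averaged 71.9 ± 5.66 CPM in the Foxp3 gate and 41.8 ± 4.74 CPM in the rest, and Slfn5 25.3 ± 4.12 and 13.4 ± 2.69 CPM in the same order. Neither gene's 4 values overlapped between the gate and the rest. The log2 fold changes of Slfn5, Phf11b and Ifi209 were 0.94 ± 0.18, 0.81 ± 0.09 and 0.66 ± 0.07. Of these, Oas1a, Phf11b and Ifi209 share sequence with copies, so that their rise cannot be given to 1 gene alone. Isg20, Parp9, Bst2, Trim30a, Trim30d and Slfn8 rose by less, with log2 fold changes between 0.24 for Slfn8 and 0.55 for Trim30d; Slfn8 was higher in 3 of 4 libraries.

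Some members that fell in the Foxp3 gate belong to the same families as those that rose. Epsti1 had 164, 161, 154 and 184 CPM in the Foxp3 gate, against 278, 281, 297 and 283 CPM in the rest, without overlap (log2 fold change -0.76 ± 0.06, adjusted p = 2.96e-09). Slfn1, a Schlafen gene known to restrain T cell growth, had 41.3, 60.0, 68.0 and 87.2 CPM in the Foxp3 gate, against 79.1, 94.8, 131 and 140.0 CPM in the rest. The ranges overlapped, but the gate was lower in each library (log2 fold change -0.77 ± 0.08, adjusted p = 8.34e-08). At the Pyhin locus, Ifi208 had 32.8, 33.2, 37.7 and 48.1 CPM in the Foxp3 gate, against 48.1, 61.9, 78.4 and 85.0 CPM in the rest (log2 fold change -0.81 ± 0.08, adjusted p = 3.14e-08). Its neighbour Ifi209, transcribed from the same strand, had 72.3, 77.8, 108 and 94.6 CPM in the Foxp3 gate, against 44.1, 51.4, 64.2 and 68.4 CPM in the rest. Ifi208 was lower in the gate and Ifi209 higher, each in 4 of 4 libraries. Ifit2, Oas3, Ifi213 and Ddx58 fell as well, with log2 fold changes of -0.61, -0.60, -0.34 and -0.29.

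In the Foxp3 gate, transcripts that mark other cell types moved too: the 6 epithelial markers summed to between 77.1 and 107 CPM in the gate and between 14.97 and 24.0 CPM in the rest. Nearly all of the epithelial sum was Epcam (92.6 ± 12.6 CPM in the gate and 15.3 ± 2.31 CPM in the rest), and Krt19 and Vil1 had no UMI in the gate. The 8 myeloid markers summed to between 219 and 256 CPM in the gate and between 164 and 192 CPM in the rest. Cst3 alone averaged 213 ± 14.8 CPM in the gate and 128 ± 2.97 CPM in the rest, whereas Lyz2, C1qa, C1qb, Csf1r, Fcer1g and Tyrobp had lower means in the gate, with Tyrobp at 1.98 ± 1.06 CPM in the gate and 16.3 ± 2.10 CPM in the rest. The part of these markers in the result was not tested. Leaving out cells with at least 2 UMIs of other cell types' markers, which took 57.2% of the Foxp3 gate, left 11 members higher and 4 lower. That list holds Cst3, Cd79b, Epcam and Pecam1, each at over 15 CPM in the Foxp3 gate; a shorter list without them and without Kit, Fcer1g, Tyrobp and Itgax, chosen after the data were seen, took 15 cells of the gate and gave 12 members higher and 10 lower, with all 12 and 7 calls among them. Under the longer list, Ifi213 (-0.01, adjusted p = 0.972) and Ifit2 (-0.51, adjusted p = 0.234) were among the calls lost. Ifit2, at 71 UMIs in the gate, also lost its call without library 2 (adjusted p = 0.211) and without library 3 (adjusted p = 0.109), and the count of lower members was 12 with no filter on low counts.

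In the Il17a gate more members fell than rose. Of 43 members, 20 fell, when 11.2% of all genes tested fell, and 2 rose, when 15.2% of all genes rose. The members' median log2 fold change was -0.45, and that of all genes was -0.03. By role, those that fell were 5 of 5 Pyhin genes tested, 2 of 3 Schlafen genes, 2 of 4 Ifit genes, 3 of 7 antiviral effectors and 2 of 5 sensors. They also held 1 of 5 Parp and ubiquitin ligase genes, 1 of 3 oligoadenylate synthetase genes, 1 of 2 transcription factors and 3 of 6 other members. Of the Isg15 pathway, 0 of 3 genes fell. Of the Pyhin genes, Ifi213 had 14.6, 19.8, 15.7 and 30.9 CPM in the Il17a gate, against 34.6, 44.7, 57.3 and 61.8 CPM in the rest, without overlap (log2 fold change -1.18 ± 0.14, adjusted p = 9.18e-07). Ifi208 had 20.8, 29.0, 27.6 and 54.6 CPM in the Il17a gate, against 48.1, 61.9, 78.4 and 85.0 CPM in the rest (log2 fold change -0.98 ± 0.11). Ifi209 had 18.3, 26.3, 33.5 and 41.2 CPM in the Il17a gate, against 44.1, 51.4, 64.2 and 68.4 CPM in the rest, without overlap (log2 fold change -0.92 ± 0.12, adjusted p = 7.45e-06). Ifi206 and Ifi203 fell with log2 fold changes of -0.80 and -0.30. So Ifi209 lay on the other side of the rest than in the Foxp3 gate, and both comparisons share the rest.

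Ifit3 had the lowest log2 fold change of the list in the Il17a gate, with 0, 0, 3.94 and 4.12 CPM against 5.57, 8.33, 12.05 and 16.7 CPM in the rest. These are 6 UMIs in the gate and 487 in the rest, so the fitted log2 fold change of -2.57 ± 0.62 (adjusted p = 0.00329) depends on how zero counts are handled. Slfn1 had 37.2, 56.6, 70.9 and 63.9 CPM in the Il17a gate, against 79.1, 94.8, 131 and 140.0 CPM in the rest, without overlap (log2 fold change -0.95 ± 0.10). Slfn8 followed it with 21.1 ± 3.91 CPM in the gate and 40.6 ± 10.4 CPM in the rest (log2 fold change -0.89 ± 0.15). Rtp4, Oas3, Ddx58, Epsti1, Irf7, Isg20, Samd9l, Bst2, Zbp1, Parp14, Xaf1 and Ifit1bl1 made up the remaining 12 that fell, between -1.05 for Ifit1bl1 (lower in 3 of 4 libraries) and -0.35 for Xaf1. Ifi27l2a went the other way, with 841, 1036, 864 and 1165 CPM in the Il17a gate, against 698, 812, 756 and 863 CPM in the rest; the ranges overlapped, and the gate was higher in each library (log2 fold change 0.36 ± 0.07, adjusted p = 0.000247). Phf11b also rose, in 3 of 4 libraries (0.49 ± 0.13).

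Cells of the Il17a gate were deeper and held more cycling transcripts: their median was 5199.5 UMIs and that of the rest 3744, and the 6 cycling markers, all detected in both, summed to between 632 and 1227 CPM in the gate and between 201 and 268 CPM in the rest. The count was smaller among cells of 2000 to 8000 UMIs, a band within which depth still varied. There 6 of 43 members were lower, when 310 of 9067 genes fell. With gates and values taken at 2000 UMIs per cell, 6 of 42 members were lower, when 223 of 8667 genes fell. In the main fit 1083 of 9671 genes fell. Leaving out cells with other cell types' markers, a filter that took 40.1% of the gate, gave 10 members lower, when 351 of 8799 genes fell. With the shorter list 19 members were lower. All 20 kept a negative log2 fold change under each of these. The members' median was -0.23 in the band of 2000 to 8000 UMIs and -0.22 at 2000 UMIs per cell. Ifit3 lost its call under both depth settings and without cells with other types' markers (adjusted p between 0.145 and 0.281). In each of these settings and without library 4, 1 member rather than 2 was higher. The part of depth and cycling was not tested.

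The Ifng gate differed little from the rest on this list. Of 43 members, 4 rose, when 5.36% of all genes tested rose, and 1 fell, when 5.19% of all genes fell. Epsti1 had 390.0, 321, 342 and 348 CPM in the Ifng gate, against 278, 281, 297 and 283 CPM in the rest, without overlap (log2 fold change 0.28 ± 0.06, adjusted p = 0.00208). Rtp4, a receptor-transporter protein, had 80.4, 107, 120.4 and 126 CPM in the Ifng gate, against 69.7, 82.8, 99.9 and 100.5 CPM in the rest (0.28 ± 0.07), and Zbp1 and Parp14 rose by 0.23 ± 0.06 and 0.19 ± 0.06. These 3 overlapped the rest in range and were higher in each library. Ifi27l2a fell, with 573, 657, 650 and 856 CPM in the Ifng gate, against 698, 812, 756 and 863 CPM in the rest (-0.22 ± 0.06, adjusted p = 0.0215). The calls changed when 1 library was left out. Without library 1, 1 member was higher and 0 lower, and without library 2, 2 were higher and 0 lower (edgeR, with 8 at an unadjusted p under 0.05 in each, in either direction). Without library 4, 3 were higher and 2 lower. Over all genes, 1020 were called with 4 libraries, 723 without library 1, 654 without library 2 and 872 without library 4. The members called with 4 libraries kept their direction in each of these fits. Epsti1 lost its call without library 1 (adjusted p = 0.0648).

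The Gzma gate held more Isg15. Of 43 members, 8 rose, when 8.57% of all genes tested rose, and 3 fell, when 7.53% of all genes fell. The count that fell is near the share of all genes. The median log2 fold change was 0.12 for the members and 0.00 for all genes. Isg15 had 433, 372, 444 and 322 CPM in the Gzma gate, against 276, 280.1, 275 and 249 CPM in the rest, without overlap (log2 fold change 0.52 ± 0.09, adjusted p = 0.000161). Parp9, an ADP-ribosyltransferase partner of Dtx3l, had 56.1, 62.5, 68.9 and 59.7 CPM in the Gzma gate, against 40.8, 51.0, 54.0 and 49.6 CPM in the rest, also without overlap (0.32 ± 0.08, adjusted p = 0.00712). Xaf1, Ifi209, the RNA sensor Ifih1 (MDA5), Rtp4, Epsti1 and Trim30a rose by between 0.22 and 0.31. Oasl2 fell, with 0.534, 2.05, 4.92 and 5.28 CPM in the Gzma gate, against 3.58, 7.20, 7.87 and 11.5 CPM in the rest (-1.26 ± 0.31, adjusted p = 0.00562), on 23 UMIs in the gate. Slfn5 and Ifi208 fell with log2 fold changes of -0.91 ± 0.26 and -0.31 ± 0.08.

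Isg15 kept its call under every alternative tried, with adjusted p of at most 0.00710 when 1 library was left out. The count of higher members was 4 without library 1 or without library 3, 5 without library 4 or with gates and values at 2000 UMIs, and 3 without cells with other cell types' markers; with the shorter list all 8 stayed called. The Cd8a level was 98.3 ± 70.3 CPM in the Gzma gate and 10.5 ± 4.79 CPM in the rest; its part in the result was not tested.

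**Figure D2:**
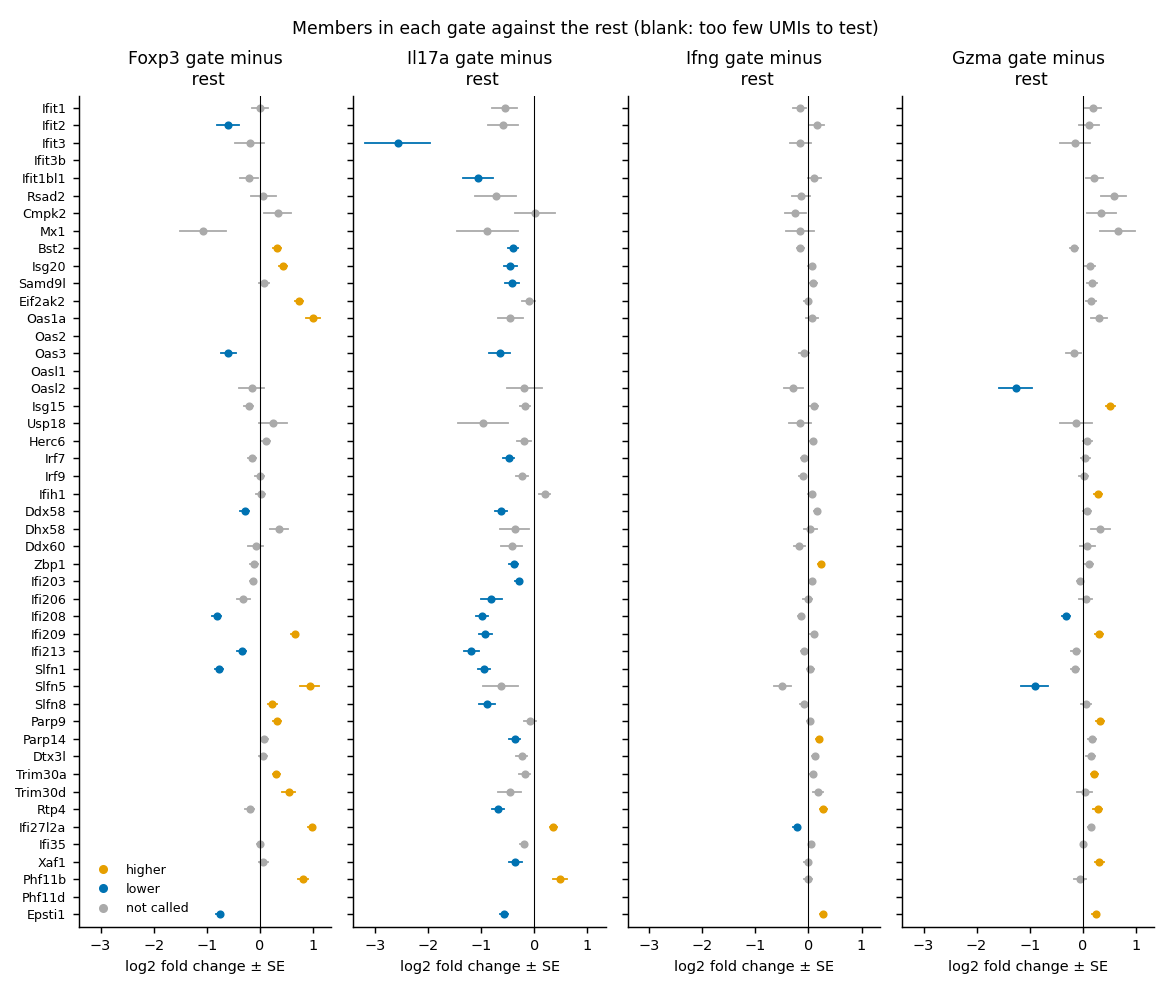
Log2 fold change with its standard error of each member in the 4 gates against the rest (n = 4 libraries), with higher members in orange, lower in blue and members that were not called in grey. The Foxp3 gate has members on both sides, most of the Il17a gate lies left of 0 with Ifit3 farthest at -2.57, and the Ifng gate stays close to 0.

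In the Schlafen, oligoadenylate synthetase and Pyhin families, members lay on different sides of the rest in the Foxp3 gate. The Schlafen genes Slfn5 and Slfn8 rose in the Foxp3 gate while Slfn1 fell there. In the oligoadenylate synthetase family Oas1a rose and Oas3 fell in the Foxp3 gate, from the same locus on chromosome 5. Of the Ifit genes, Ifit3 and Ifit1bl1 fell in the Il17a gate, and Ifit2 had a log2 fold change of -0.61 in the Foxp3 gate, which passed the test, and of -0.59 in the Il17a gate, which did not (adjusted p = 0.149); gates were not tested against each other. Irf7 fell in the Il17a gate, with 56.8, 51.4, 78.7 and 58.8 CPM in the gate, against 74.1, 94.9, 87.9 and 96.6 CPM in the rest, and the ranges overlapped. Irf9, Usp18, Herc6 (the ligase that attaches Isg15 in mice), Rsad2, Cmpk2 and Mx1 passed the test in no gate. The lowest adjusted p among them was 0.0588, for Mx1 in the Foxp3 gate with 3.10 ± 2.65 CPM, against 6.77 ± 2.18 CPM in the rest. Summed over all 47 members, the Foxp3 gate held 3980 ± 297 CPM, the Il17a gate 2869 ± 306, the Ifng gate 3443 ± 378, the Gzma gate 3773 ± 367 and the rest 3377 ± 353. Without Ifi27l2a the Foxp3 gate no longer had the highest sum, and the values were 2467 ± 183 CPM in the Foxp3 gate, 1892 ± 228 in the Il17a gate, 2759 ± 269 in the Ifng gate, 2893 ± 291 in the Gzma gate and 2595 ± 294 CPM in the rest.

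The genes upstream of the list were then read from the same fit. Of all genes tested, 18.6% rose and 16.2% fell in the Foxp3 gate, 15.2% and 11.2% in the Il17a gate, 5.36% and 5.19% in the Ifng gate, and 8.57% and 7.53% in the Gzma gate, and the counts of the lists are given as a description beside these shares. None of the 19 ligand genes looked for (interferon alpha subtypes, beta, epsilon, kappa and lambda among them) had a UMI in any cell of at least 2000 UMIs. Of the 5 receptor genes tested, 3 rose in the Foxp3 gate, 3 fell in the Il17a gate, 2 fell in the Ifng gate and 3 fell in the Gzma gate. Ifnar1 averaged 129 ± 10.2 CPM in the Foxp3 gate and 91.3 ± 10.0 CPM in the rest (log2 fold change 0.52 ± 0.06, adjusted p = 3.62e-07), and Ifnar2 66.5 ± 10.2 CPM in the Il17a gate and 85.6 ± 4.45 CPM in the rest (-0.38 ± 0.08, adjusted p = 0.00193). Ifngr2, the second chain of the interferon gamma receptor, averaged 2.34 ± 0.822 CPM in the Ifng gate and 12.3 ± 4.12 CPM in the rest (-2.39 ± 0.22). Of 10 signalling genes, 5 rose in the Foxp3 gate, Jak2 with a log2 fold change of 0.68 ± 0.06 and Stat2 with 0.35 ± 0.11 among them. In the Gzma gate 3 rose and in the Ifng gate 1 rose, while 3 fell in the Il17a gate, among them Tyk2 with -0.70 ± 0.19. Of 6 inhibitors, 4 fell in the Foxp3 gate, 2 in the Gzma gate and 1, Socs3, in the Il17a gate (67.4 ± 29.7 CPM in the gate and 119.6 ± 34.8 CPM in the rest). In the Ifng gate 1 inhibitor rose.

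The GTPases, which interferon gamma also induces, were counted in the same way, to be read against the same shares. Of 15 tested, 3 rose and 5 fell in the Foxp3 gate, 0 rose and 10 fell in the Il17a gate, 7 rose and 0 fell in the Ifng gate, and 2 rose and 0 fell in the Gzma gate. Beside these counts of 0 from edgeR, 1 GTPase was higher in the Il17a gate, 1 lower in the Ifng gate and 0 lower in the Gzma gate at an unadjusted p under 0.05, and DESeq2 called 0 in each. Gbp2 averaged 185 ± 27.0 CPM in the Ifng gate and 102 ± 17.0 CPM in the rest (log2 fold change 0.85 ± 0.07, adjusted p = 5.16e-08), and Gbp3 60.6 ± 2.99 and 31.2 ± 1.26 CPM in the same order. Iigp1 averaged 7.82 ± 4.39 CPM in the Il17a gate and 27.9 ± 6.55 CPM in the rest (-1.55 ± 0.26, adjusted p = 8.21e-05). In the Foxp3 gate Gbp3, Gbp5 and Gbp7 rose and Gbp8, Gbp9, Tgtp1, Tgtp2 and Ifi47 fell. Of 40 further interferon-induced genes tested, 7 rose and 8 fell in the Foxp3 gate, 2 and 14 in the Il17a gate, 4 and 1 in the Ifng gate, and 3 and 5 in the Gzma gate; both counts in the Foxp3 gate are near the shares of all genes.

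Detection was next counted cell by cell. So that depth could not set the number, 20733 cells of at least 2000 UMIs were thinned to 2000 UMIs each, and the number of members with at least 1 UMI was counted. The median cell had 4 members, 293 cells had 0 and the highest count was 39. The share with 5 or more members was 38.1%, 45.2%, 48.1% and 52.9% in libraries 1 to 4, or 46.1% ± 6.20 (SD, n = 4), with exact binomial intervals (95%, counting error only) of 36.8% to 39.4% in library 1 and 51.5% to 54.3% in library 4. By gate this share was 45.5% ± 3.89 in the Foxp3 gate, 32.1% ± 5.43 in the Il17a gate, 49.0% ± 7.04 in the Ifng gate, 47.5% ± 4.22 in the Gzma gate and 44.9% ± 6.55 in the rest. The Il17a gate was lower than the rest in 4 of 4 libraries, by -12.8 percentage points ± 5.65, and the Ifng gate higher in 4 of 4, by 4.15 ± 2.07. Both had p = 0.13 in the exact two-sided sign-flip permutation test over 4 paired libraries, which is the smallest p that it can give. The Gzma gate was higher in 3 of 4 libraries (exact p = 0.25) and the Foxp3 gate in 2 of 4 (exact p = 0.875). These are 4 comparisons against 1 rest, and none can pass a threshold of 0.05 with 4 libraries.

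A cell with 5 members is not unusual, so a second, higher number was chosen after the counts per cell had been seen: 12 or more, from where the distribution has a long thin tail. Such cells were 2.36%, 2.75%, 4.64% and 4.83% of libraries 1 to 4, 749 cells in all, and 152 cells had 20 or more. They were found in every gate, at 3.30% ± 0.152 in the Foxp3 gate, 2.50% ± 1.55 in the Il17a gate, 3.44% ± 1.07 in the Ifng gate, 4.81% ± 1.85 in the Gzma gate and 3.69% ± 1.54 in the rest. The Il17a share rests on 13 cells. The Il17a gate was lower than the rest in 4 of 4 libraries (exact permutation p = 0.13, the smallest possible), although its range overlapped that of the rest. For the other gates the exact permutation p lay between 0.25 and 0.625. Without these cells the summed level was 2783, 3055, 3124 and 3339 CPM in libraries 1 to 4, and 42 of the 47 members were higher in library 4 than in library 1, with a median ratio of 1.26 (1.39 with all cells).

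**Figure D3:**
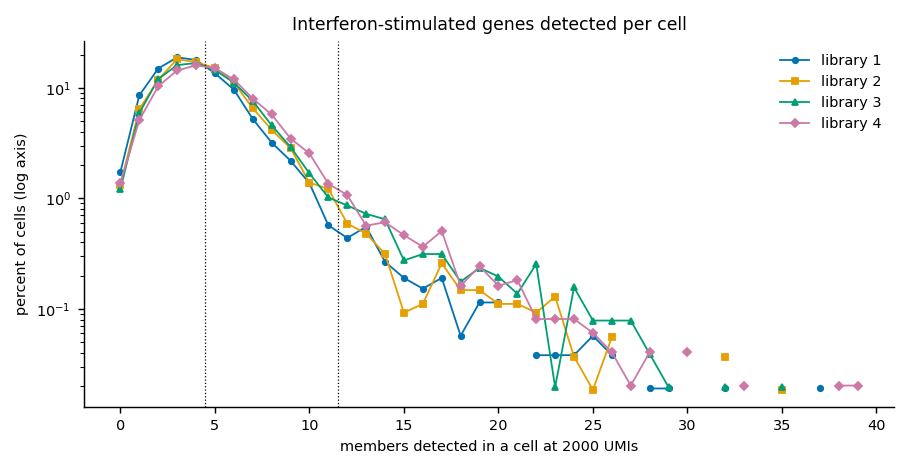
Percent of cells (log axis) by the number of members detected at 2000 UMIs per cell, for libraries 1 to 4, with dotted lines at 5 and 12 members. Counts peak at 3 and 4 members (16.9% of cells each), and a thin tail reaches 39.

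**Figure D4:**
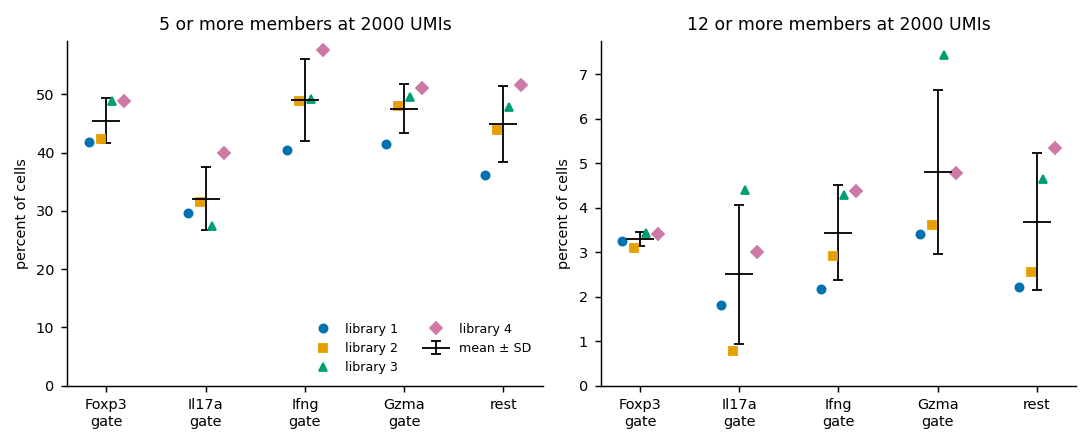
Percent of cells with 5 or more members (left) and 12 or more (right) in each gate and in the rest, as 1 point per library with the mean and SD. The Il17a gate is lowest in both panels (32.1% and 2.50%), and the libraries within a gate spread as far as most gates differ.

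The members differed in the share of cells in which they were detected, a share that at a fixed depth also follows a member's level. In the thinned cells, Ifi27l2a was detected in 53.6% ± 2.53 of cells, Epsti1 in 42.4% ± 0.855, Ifi203 in 36.6% ± 3.41, Isg15 in 32.0% ± 1.48 and Bst2 in 20.9% ± 1.92, while 19 members were detected in under 5% of cells and 4 in under 1%. Empty droplets were not among the barcodes, so the part of free RNA in these shares was not measured. To see which members concentrate in the cells with a high count, each member was compared between cells with 12 or more of the other 46 and cells with fewer. All 47 were higher there in each of the 4 libraries, with a median ratio of means of 5.46. The members with a ratio of 10 or more were each detected in at most 4.71% of cells, the share of Ifit1. Those detected in over 20% of cells had ratios of at most 6.81, that of Isg15. A low share did not always go with a high ratio, as Trim30d, detected in 3.62% ± 0.484 of cells, had 4.86. The part of a member's level in its ratio was not tested. The ratios describe how members go together in cells, and a sum of members chose the cells, so they have no test.

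Ifit3 had 169, 173, 232 and 216 CPM in cells with 12 or more other members, against 1.56, 2.78, 2.83 and 4.65 CPM in the remaining cells, a ratio of means of 66.8. Of its UMIs, 70.7% came from 741 cells. Ifit3b, its copy with the same promoter stretch, had a ratio of 75.8. Rsad2 had 153, 154, 148 and 151 CPM in these cells, against 3.83, 3.31, 3.55 and 4.61 CPM in the others (39.6-fold), and Usp18 averaged 91.6 ± 8.13 CPM against 2.40 ± 0.811 CPM (38.2-fold). Mx1, Cmpk2, Ifit1, Oasl1, Oasl2, Slfn5 and Oas2 were the other members at 10-fold or more, between 29.1 for Mx1 and 13.2 for Oas2. Oas2 varied between libraries, from 2.82-fold to 22.8-fold, on 33 UMIs in the set.

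At the other end, Epsti1 averaged 574 ± 19.8 CPM in cells with 12 or more other members and 287 ± 10.6 CPM in the others, a ratio of 2.0. Irf9 (2.44) and Ddx58 (2.93) were the only other members under 3-fold. Isg15 lay between, with 1646 ± 207 CPM in these cells and 242 ± 19.7 CPM in the others (6.81-fold), and the Pyhin genes had ratios from 3.39 for Ifi203 to 6.61 for Ifi213. The 22 members with the element's letters in the promoter window had a median ratio of 5.82 (2.93 to 75.8) and the 16 without it 5.19 (2.0 to 27.9). Of the 11 members at 10-fold or more, 8 had an entry, and 5 of these held the motif.

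**Figure D5:**
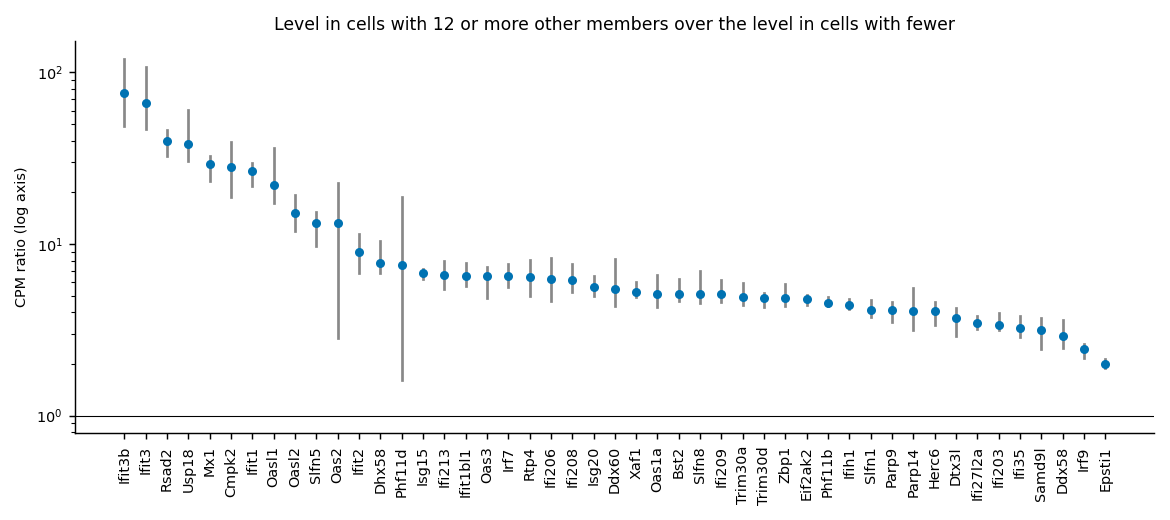
Ratio (log axis) of each member's CPM in cells with 12 or more of the other 46 members over its CPM in cells with fewer, as the ratio of means (points) with the range over 4 libraries (bars). All points lie above 1, from 75.8 for Ifit3b to 2.0 for Epsti1.

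Pairs of members differed in how strongly they were detected together. Among the 263 thinned cells with a UMI of Ifit3, Ifit1 was detected in 45.6% ± 3.66, against 4.17% ± 0.509 of cells without Ifit3 (SD, n = 4 libraries). Rsad2 was detected in 27.8% ± 7.08 of cells with Ifit3, against 0.935% ± 0.246 of cells without, and Usp18 in 18.8% ± 6.17, against 0.752% ± 0.199. Isg15 was found in 70.2% ± 2.79 of cells with Ifit3 and also in 31.5% ± 1.76 of cells without it. Cells with Ifit3 held on average 14.6 ± 0.416 other members, and cells without it 4.71 ± 0.367. A smaller contrast was seen for a pair of broad genes, with Ifi203 in 44.5% ± 3.49 of cells with Slfn1 and 35.0% ± 3.07 of cells without.

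In measures the list did not use, cells with 12 or more members were close to the others in depth and T cell markers and lower in cycling and plasma cell transcripts. They had a median of 3801 UMIs, against 3899 in cells with fewer members, and at 2000 UMIs a median of 1066 genes, against 1052. The 5 T cell markers summed to 3832 ± 64.0 CPM in them and 3828 ± 61.4 CPM in the others, and the 8 myeloid markers to 174 ± 58.5 and 181 ± 14.6 CPM in the same order. The 4 plasmacytoid dendritic cell markers summed to 655 ± 46.0 CPM in them and 596 ± 67.2 CPM in the others, of which Ccr9, a gut-homing receptor that T cells also carry, made up 619 ± 49.3 and 564 ± 66.5 CPM in the same order. Of the same list, Irf8 averaged 30.2 ± 12.5 CPM in cells with 12 or more members and 23.1 ± 5.76 CPM in the others, while Siglech had no UMI in them. The 5 B cell markers summed to 13.4 ± 3.30 CPM in cells with 12 or more members and 13.1 ± 1.87 CPM in the others, mostly Cd79b, and the 6 epithelial markers to 20.0 ± 5.04 and 22.8 ± 4.74 CPM, nearly all Epcam; the part of these lists in the result was not tested. The cycling markers were lower in cells with 12 or more members (62.3 to 199 CPM over libraries) than in the others (305 to 411 CPM), and the plasma cell markers too (9.26 to 17.1 CPM, against 99.5 to 862 CPM). Of these cells, 6.54% were in the Foxp3 gate, 1.74% in the Il17a gate, 29.5% in the Ifng gate, 10.5% in the Gzma gate and 51.7% in the rest, against 7.23%, 2.79%, 31.1%, 7.96% and 51.0% of the other cells.

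Among genes that are not on the list, few differed between these cells. Past 2-fold in all 4 libraries, 57 of 5921 genes (0.963%) were higher in cells with 12 or more members and 30 (0.507%) lower; with 5 or more members these numbers were 5 (0.0848%) and 7 (0.119%) of 5894. Within the rest alone they were 53 (0.891%) and 24 (0.404%) of 5946 at 12 or more members, and 5 (0.0853%) and 12 (0.205%) of 5865 at 5 or more. Predicted, ribosomal, mitochondrial, receptor segment and immunoglobulin genes were left out when genes were ranked by ratio. The ranked genes with the highest median ratio at 12 or more were Gbp10 (74.9 ± 13.7 CPM in these cells and 7.70 ± 2.13 CPM in the others), Ifi214, Ifitm3, Iigp1, Ube2l6, Rnf213, Phf11c and Hsh2d. Ifi214 shares sequence with the member Ifi209. Ube2l6, the enzyme that carries Isg15 to its ligases, had 196 ± 9.52 CPM in these cells and 33.7 ± 4.11 CPM in the others, and Rnf213 310.3 ± 17.3 and 52.0 ± 4.71 CPM. Of the pathway lists, 13 of 15 GTPases and 18 of 38 further interferon-induced genes were past 2-fold, with 2 of 9 signalling genes, 0 of 4 receptors and 0 of 6 inhibitors. The receptors had a median ratio of 0.968.

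Among the genes ranked, Ccr7, the homing receptor of naive and central memory cells, had the lowest median ratio at 12 or more members (3.57 ± 2.80 CPM in these cells and 32.2 ± 13.2 CPM in the others). The replication genes Rrm2 and Pclaf and the cytokine Il22 (19.1 ± 15.6 CPM and 91.7 ± 55.7 CPM) followed. Igha and Jchain, which were not ranked, averaged 1.38 ± 0.951 and 7.22 ± 6.35 CPM in these cells. In the others they averaged 160 ± 115 and 233 ± 153 CPM. At 5 or more members, Igfbp4 (5.43 ± 0.951 CPM and 23.1 ± 7.65 CPM) and Ccr7 (12.6 ± 4.22 CPM and 46.1 ± 16.3 CPM) had the lowest ratios of the ranked genes. Ifi214, Iigp1, Gbp6, Rnf213 and Tgtp1 had the highest. The cells were chosen by members of the list, so these are descriptions with no p-value.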

How the data were processed

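Single-cell transcripts were measured in 4 libraries of sorted CD4 T cells. For each library the authors deposited raw UMI counts as a matrix; the submitters' processing notes name Cell Ranger 3.0.2 and the build mm10. The barcode with the fewest UMIs in the deposited matrices held 502. The members, lists and tests were chosen with earlier results of these data known.

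Cells with at least 500 genes, 1000 UMIs and at most 10% mitochondrial UMIs were kept (22534 of 22904). The 1050 cells with the highest Scrublet scores (scanpy 1.11.5) were removed as doublets, at 0.8% per 1000 barcodes in each library. Counts were summed per library and gate (20 sums) and fitted together with edgeR 4.0.16 (quasi-likelihood test glmQLFTest after glmQLFit, library as a block, scaling by TMM, low genes left out by filterByExpr, 12 residual degrees of freedom), after a check on simulated counts. The block is used because the gates of a library come from the same cells in suspension. Genes were adjusted by Benjamini-Hochberg over all 9671 tested. Named members were up to 6 highest and 6 lowest log2 fold changes past 0.05 with the same direction in 4 of 4 libraries; for levels, the 10 most abundant, the Ifit genes, Isg15, Isg20, Irf7, Irf9, Usp18, Mx1, Rsad2 and those under 1 CPM; outside the list, pathway genes and the non-members with the highest and lowest ratios. Members called in 3 of 4 libraries, pairs for co-detection and the members at the ends of the ratio were named after their values were seen. The ranking of non-members by ratio left out predicted, ribosomal, mitochondrial, receptor segment and immunoglobulin genes, with Jchain among them. Shares used exact sign-flip tests (scipy 1.17.1). Cells have no authors' annotation here, so gates by single transcripts stand in for cell types. Alternatives were other scalings (DESeq2 1.42.0 among them), filters, gates, depths, marker filters and leaving out each library.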

Additional observations from a re-analysis of the deposited data

Results flagged for a closer look

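In 125 sets of 4 library values, 4 had 1 library standing apart by Dixon's ratio, above its 95% critical value; chance flags about 1 set in 20. Ddx60, an RNA helicase gene, had 15.5 CPM over all cells of library 1 and between 21.3 and 21.7 CPM in the other 3 libraries (ratio 0.926). Oas1a in the Foxp3 gate had 53.3 CPM in library 2 and between 59.7 and 60.9 CPM elsewhere (ratio 0.848), and every one of these values lay above the rest. Oas3 in the Foxp3 gate had 17.4 CPM in library 4 and between 9.87 and 11.1 CPM elsewhere (ratio 0.842). Slfn5 in the Gzma gate had 11.7 CPM in library 3 and between 5.34 and 6.34 CPM elsewhere (ratio 0.842).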

How the results depend on the processing

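All 57 calls of members kept their direction under the 16 alternatives wherever they could be fitted. For the 33 named pairs of member and gate, 460 of 526 values stayed past the threshold, 66 did not and 0 reversed. Without the library as a replicate block, 15 of the 33 lost their call, and the counts were 10 higher and 5 lower in the Foxp3 gate, 2 and 15 in the Il17a gate, 1 and 0 in the Ifng gate and 2 and 0 in the Gzma gate (edgeR; 3 and 7 members at an unadjusted p under 0.05 in the Ifng and Gzma gates, in either direction). Leaving out 1 library gave between 11 and 12 higher and between 6 and 8 lower members in the Foxp3 gate, 1 to 2 and 16 to 20 in the Il17a gate, 1 to 3 and 0 to 2 in the Ifng gate, and 4 to 7 and 2 to 3 in the Gzma gate. With no filter on low counts, 12 members were lower in the Foxp3 gate and 2 in the Ifng gate; 2 were also lower there with doublets kept, with stricter gates or without cells with the shorter marker list. Without cells with other types' markers, 4 were lower in the Foxp3 gate, 1 higher and 10 lower in the Il17a gate, and 3 higher in the Gzma gate. Both in cells of 2000 to 8000 UMIs and when thinned to 2000 UMIs, 1 was higher and 6 lower in the Il17a gate. When thinned, 5 were higher in the Gzma gate. In the Il17a gate the calls over all genes fell as well, from 2554 in the main fit to 1045 without cells with other types' markers. They were 926 at 2000 to 8000 UMIs and 634 when thinned. The cause of these moves was not tested.

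The share with 5 or more members follows depth and the number asked for. In all cells, the Foxp3, Il17a, Ifng and Gzma gates and the rest, it was 15.1%, 16.1%, 11.2%, 15.5%, 15.5% and 14.9% at 1000 UMIs, 69.6%, 67.4%, 54.0%, 73.4%, 73.3% and 67.8% at 3000 UMIs, and 81.9%, 84.8%, 78.5%, 85.1%, 81.4% and 79.6% with no thinning. For 3 or more members it was 79.8%, 79.3%, 71.4%, 82.5%, 82.4% and 78.2%, for 8 or more 13.7%, 13.2%, 8.02%, 14.5%, 14.5% and 13.5%, and without the 5 most abundant members 18.9%, 18.02%, 11.1%, 20.2%, 19.2% and 18.5%. The Il17a gate had the lowest share in each of these settings. The share of all cells with 12 or more was 0.969% at 1000 UMIs, 8.0% at 3000 UMIs, 20.1% with no thinning and 1.65% without the 5 most abundant members, and the shares with 10 or more and 15 or more were 6.43% and 1.87%. The summed level was 3075 CPM without the cells with 12 or more, against 3463 CPM with them, and within the rest 12 non-members were 2-fold lower at 5 or more members. With 4 libraries the exact tests cannot go below 0.13, and members under 10 CPM rest on few UMIs per gate.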

Other observations

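Within the rest alone, where none of the gating transcripts was captured at its threshold, the chemokine gene Cxcl10, an interferon target, averaged 635 ± 296 CPM in cells with 12 or more members and 113 ± 39.5 CPM in the other cells of the rest, and Iigp1 163 ± 22.3 and 22.4 ± 3.6 CPM in the same order. Over the gates, Cxcl10 was higher in the Ifng gate (293 ± 49.0 CPM) than in the rest (129 ± 36.2 CPM; edgeR log2 fold change 1.17 ± 0.13, adjusted p = 2.39e-06), and it rose in the Foxp3, Il17a and Gzma gates as well (0.57 ± 0.15, 0.83 ± 0.16 and 0.63 ± 0.15).

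Some interferon-induced genes off the list separated the Foxp3 gate from the rest more than most members did. Samhd1, which depletes nucleotides, averaged 256 ± 24.7 CPM in the Foxp3 gate and 127 ± 5.74 CPM in the rest (log2 fold change 1.03 ± 0.07, adjusted p = 1.02e-10), and Ube2l6 60.9 ± 4.65 and 34.1 ± 6.74 CPM. Ms4a4b averaged 463 ± 64.7 CPM in the Foxp3 gate and 899 ± 70.5 CPM in the rest (-0.94 ± 0.06, adjusted p = 1.07e-10).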
